A study of Mus musculus with 312 samples.

Results

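Measurements of 8 genes that serve as markers of the luminal layer of the mammary gland were taken from single cells labelled as basal. The genes were the keratin genes Krt7, Krt8, Krt18 and Krt19, the adhesion gene Epcam, and the claudin genes Cldn3, Cldn4 and Cldn7. They were picked by symbol, and all 8 were found among the 27179 deposited gene IDs. Cells came from female FVB/NJ mice, an inbred strain, with no treatment or engineered allele named in the labels. They had been sorted fresh from mammary gland, and the Fluidigm C1 then held each cell in a chamber of its own for cDNA synthesis. The labels gave 237 adult and 75 pregnancy cells, and named neither the animals, the adult age in weeks nor the day of pregnancy. Of the adult cells, 112 carried the mark (2) in the title and 125 did not, and the labels do not explain the mark. In the study's methods, basal cells are those with high CD29 and with CD24, after removal of cells with CD31, CD45 or TER-119, so no product of the 8 genes was part of the gate. The study describes the cells it profiled from pregnant mice on this instrument as total epithelium, so a basal sort of the 75 cells rests on the labels.

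Basal cells lie on the outside of the mammary duct, contract under oxytocin, and are known for the keratins Krt5 and Krt14 and for smooth muscle actin, Acta2. Luminal cells line the lumen and are known for simple keratins, which form filaments from a type II partner (Krt7 or Krt8) and a type I partner (Krt18 or Krt19), for the adhesion protein Epcam and for claudins, which seal tight junctions. Basal cells are known to carry Epcam protein at a lower level than luminal cells.

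The 8 genes lie on 4 mouse chromosomes (RefSeq positions, GRCm38.p6). Krt7 (chr15:101412403-101427806), Krt8 (chr15:101996711-102004342) and Krt18 (chr15:102028216-102032026) share chromosome 15, and 23.9 kb separate Krt8 from Krt18. Cldn4 (chr5:134945123-134946934) and Cldn3 (chr5:134986214-134987476) lie 39.3 kb apart on chromosome 5. Krt19 (chr11:100140810-100145926) and Cldn7 (chr11:69964779-69967886) lie 30.2 Mb apart on chromosome 11, and Epcam (chr17:87635979-87651127) lies on chromosome 17. The Cldn3 locus overlaps Wbscr25 and RefSeq lists a pseudogene Krt8-ps, so reads of Cldn3 and Krt8 may be split or shared with these.

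The start regions of 4 of the genes are printed below because they span the range of the data: Epcam was the member found in the largest share of basal cells, Krt8 and Krt18 encode a filament pair and are neighbours, and Cldn4 was at 100 CPM or more in 2 cells. Each is 300 bases, 250 before and 50 after the annotated start, from RefSeq on GRCm38.p6. Capitals mark the E-box CACCTG on either strand (CAGGTG when read from the other strand), the sequence bound by the Snai and Zeb repressors of epithelial genes. The windows are chr17:87635729-87636028 (plus strand), chr15:102004293-102004592 (minus), chr15:102027966-102028265 (plus) and chr5:134946885-134947184 (minus).
Epcam: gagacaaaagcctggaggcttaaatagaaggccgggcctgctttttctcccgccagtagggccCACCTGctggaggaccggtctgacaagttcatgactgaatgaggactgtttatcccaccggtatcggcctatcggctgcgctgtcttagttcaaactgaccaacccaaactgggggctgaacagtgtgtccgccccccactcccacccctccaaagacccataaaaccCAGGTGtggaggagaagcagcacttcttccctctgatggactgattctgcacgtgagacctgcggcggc
Krt8: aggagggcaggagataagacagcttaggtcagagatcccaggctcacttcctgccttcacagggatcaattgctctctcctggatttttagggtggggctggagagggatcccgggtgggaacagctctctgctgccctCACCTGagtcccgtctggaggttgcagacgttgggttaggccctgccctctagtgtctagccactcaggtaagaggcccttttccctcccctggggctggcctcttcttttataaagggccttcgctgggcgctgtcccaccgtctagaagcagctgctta
Krt18: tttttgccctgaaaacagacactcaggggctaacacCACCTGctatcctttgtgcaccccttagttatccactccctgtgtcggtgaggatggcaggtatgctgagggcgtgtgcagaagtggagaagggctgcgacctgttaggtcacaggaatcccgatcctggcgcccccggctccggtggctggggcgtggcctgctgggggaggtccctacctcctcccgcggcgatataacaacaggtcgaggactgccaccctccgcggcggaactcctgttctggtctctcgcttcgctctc
Cldn4: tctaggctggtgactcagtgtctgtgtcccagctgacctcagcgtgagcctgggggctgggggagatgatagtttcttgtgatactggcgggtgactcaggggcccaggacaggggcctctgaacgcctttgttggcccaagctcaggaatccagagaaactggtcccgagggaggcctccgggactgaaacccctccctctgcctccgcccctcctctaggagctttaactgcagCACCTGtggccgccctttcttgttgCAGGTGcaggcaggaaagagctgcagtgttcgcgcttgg
Start regions were given for 7 of the genes, in 8 windows because Cldn7 had 2 starts, and Krt19 had none. The E-box was present in 7 of the 8 windows and in at least 1 window of each of the 7 genes, against 20.2% of the 32851 windows of this length, and against 23.6% of the 12621 windows with a GC content in the range of the members. It was 1 of 4 motifs looked for, and was chosen for display after the sequences were seen. The TATA box TATAAA was in 1 member window (13.6% of all windows), the AP-1 site TGACTCA in 1 (5.20%) and the GC box GGGCGG in 5 (35.7%). A match describes the letters and is not a site.

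Levels are in CPM, counts per 1e6 assigned reads of the cell, and a gene counted as carried at 100 CPM or more. Cells were retained with at least 50000 assigned reads and 1000 genes, which kept 139 adult cells (81 with the mark (2) and 58 without) and 71 pregnancy cells. Median assigned reads were 174910 in the (2) cells, 101320 in the other adult cells and 230645 in pregnancy, and the median mitochondrial share of reads was 9.65%, 15.6% and 18.4%. Krt14 and Acta2 were both carried by 129 retained adult cells (78 and 51 in the title sets) and 70 pregnancy cells and at least 6 of 11 core basal genes were carried by 127 and 70. No test is given anywhere below, since each stage is 1 sample without named animals. Shares are followed by exact binomial 95% intervals, which cover counting error only, and stage cannot be told apart from capture run.

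**Figure D1:**
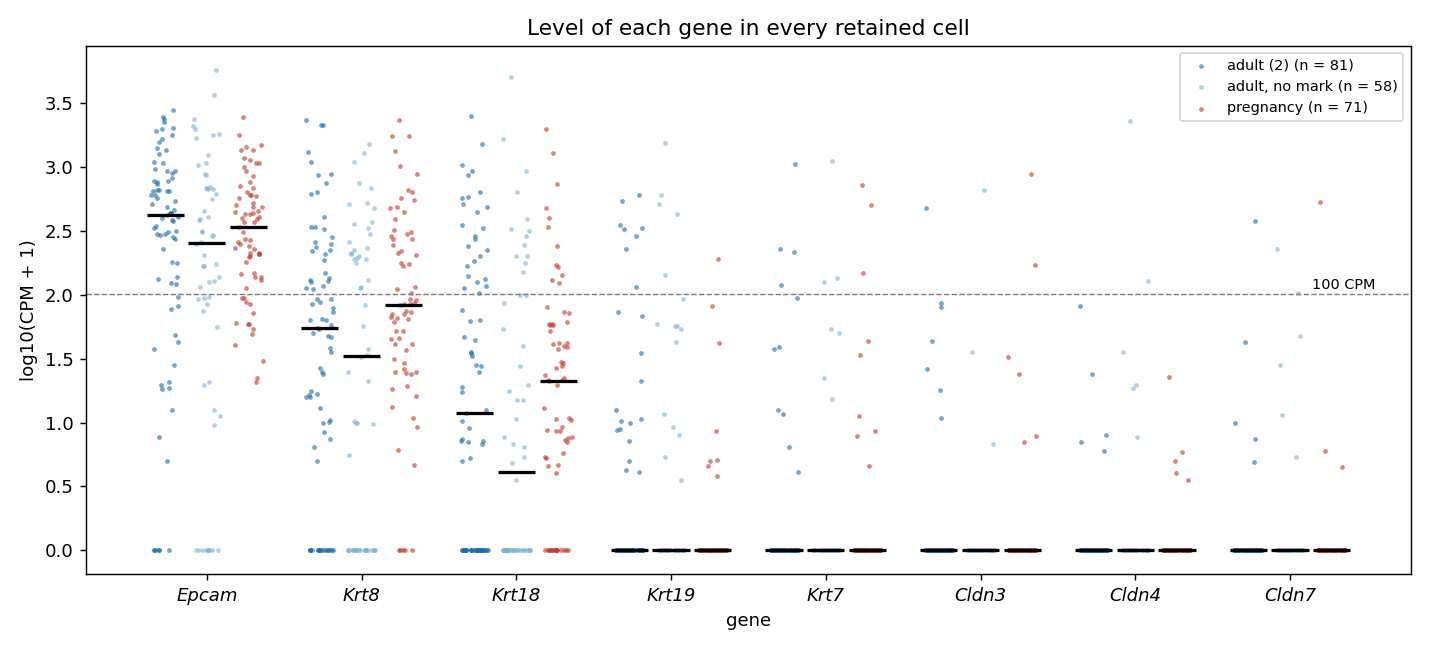
Level of the 8 genes, as log10(CPM + 1), in each of the 81 adult (2), 58 other adult and 71 pregnancy cells retained; each point is a cell, black lines are medians, and the dashed line is 100 CPM. Epcam stood highest, Krt8 and Krt18 spread from 0 to above 1000 CPM, and Krt19, Krt7 and the claudins were at 0 in most cells of every set.

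Epcam, which mediates adhesion between epithelial cells, was the member most often carried. In adult cells its level ran from 0 to 5784 CPM (median 346), and in pregnancy cells from 19.7 to 2474 CPM (median 341). All pregnancy values lay within the adult range, and no pregnancy cell was without a read of Epcam, while 124 of 139 adult cells had at least 1 read. It was carried by 99 adult cells (71.2%, 62.9 to 78.6%) and 57 pregnancy cells (80.3%, 69.1 to 88.8%). The adult mean of Epcam was 619 CPM and the pregnancy mean 478 CPM, which gave a log2 ratio of -0.37 (on mean CPM + 10), but the sign turned to 0.36 when log2 values were averaged over cells. The 2 adult title sets had means of 616 and 623 CPM and medians of 422 and 253 CPM.

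Krt8, the type II keratin of simple epithelia, was carried by 55 adult cells (39.6%, 31.4 to 48.2%) and 30 pregnancy cells (42.3%, 30.6 to 54.6%). It ran from 0 to 2354 CPM in adult cells (median 49.4) and from 0 to 2325 CPM in pregnancy cells (median 82.1). The share of cells above the level of 100 CPM was thus similar, and the groups differed among cells with few reads. When each cell was thinned to 50000 reads, Krt8 was seen in 86 adult cells (61.9%, 53.3 to 70.0%) and 61 pregnancy cells (85.9%, 75.6 to 93.0%), and before thinning in 71.9% and 93.0%. Those thinned intervals count cells within 1 sample per stage, so they do not measure the spread between animals. As 1 read of 50000 stands for 20 CPM, the difference lies at 1 to a few reads per cell. Mean Krt8 was 211 and 260 CPM, a log2 ratio of 0.28, with 0.19 against the (2) cells and 0.43 against the other adult cells.

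Krt18, the type I partner of Krt8, showed the reverse order of means. It ran from 0 to 5096 CPM in adult cells (median 6.17), and from 0 to 2010 CPM in pregnancy cells (median 20.3). The median was thus higher in pregnancy and the mean lower, at 104 CPM against 179 CPM (log2 ratio -0.73). Krt18 was carried by 39 adult cells (28.1%, 20.8 to 36.3%) and 12 pregnancy cells (16.9%, 9.05 to 27.7%), and at 500 CPM or more by 13 and 3 cells. The thinned shares were 45.3% and 50.7%, which go against the means, so no order is read from them. Adult cell 130 held 20.5% of the summed adult CPM of Krt18, and without it the adult mean was 143 CPM.

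Krt19, a type I keratin that lacks the tail domain of the others, had a lower mean in pregnancy. It was at 0 in most cells, and its highest level was 1549 CPM among adult and 191 CPM among pregnancy cells. It was carried by 13 adult cells (9.35%, 5.07 to 15.5%) but 1 pregnancy cell (1.41%, 0.0357 to 7.60%), which was cell 71. After thinning to 50000 reads it was seen in 29 adult cells (20.9%, 14.4 to 28.6%) and 3 pregnancy cells (4.23%, 0.880 to 11.9%). After thinning to 20000 reads the shares were 15.8% (10.2 to 23.0%) and 4.23%. For the (2) cells alone at 50000 reads the share was 19.8% (11.7 to 30.1%). These intervals count cells within 1 sample per stage, so they do not measure the spread between animals. The adult mean of Krt19 was 48.1 CPM and the pregnancy mean 4.71 CPM (log2 ratio -1.98). The ratio was -1.70 against the (2) cells, whose mean was 37.8 CPM, and -2.30 against the other adult cells, whose mean was 62.5 CPM. Without the highest cell of each stage the means were 37.2 and 2.05 CPM, and in cells with Krt14 and Acta2 alone the ratio was -1.75.

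Krt7, a type II keratin of simple epithelia, was rare at both stages, with a median of 0. It was carried by 7 adult cells (5.04%, 2.05 to 10.1%) and 3 pregnancy cells (4.23%, 0.880 to 11.9%), with maxima of 1121 and 726 CPM. After thinning, 11.5% and 11.3% of cells had a read. The adult mean was 24.0 CPM and the pregnancy mean 20.8 CPM, with a log2 ratio of -0.14 that became 0.20 in the cells with Krt14 and Acta2. Adult cell 130 held 33.6% and pregnancy cell 65 held 49.0% of the summed CPM of Krt7, and the means without them were 16.0 and 10.8 CPM.

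The 3 claudin genes were at a median of 0 in every set. Cldn3 was carried by 2 adult cells (1.44%, 0.175 to 5.10%) and 2 pregnancy cells (2.82%, 0.343 to 9.81%). Cldn7 was carried by 3 adult cells (2.16%, 0.447 to 6.18%) and 1 pregnancy cell (1.41%, 0.0357 to 7.60%). Cldn4 was carried by 2 adult cells (1.44%, 0.175 to 5.10%) and by 0 of 71 pregnancy cells (a share of up to 4.23% is possible by the limit of 3 counts, and 5.06% by the exact interval). Single cells held much of these sums. In adult cells the highest cell held 45.6% of Cldn3, and the Cldn7 mean of 6.18 CPM was 3.48 CPM without its highest cell. Adult cell 130 held 87.6% of the summed adult CPM of Cldn4 at 2295 CPM. Pregnancy cell 71 held 98.4% of the summed pregnancy CPM of Cldn7 at 535 CPM. Pregnancy cell 63 held 78.8% of Cldn3 at 880 CPM. The Cldn4 log2 ratio of -1.46 became -0.25 in cells with Krt14 and Acta2 alone, which leaves out cell 130.

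Compared per kilobase of exon (mean RPKM), the adult order was Epcam 300, Krt18 128, Krt8 117, Krt19 35.0, Krt7 15.1, Cldn4 10.4, Cldn3 8.20 and Cldn7 4.26. In pregnancy it was Epcam 232, Krt8 144, Krt18 74.3, Krt7 13.1, Cldn3 12.5, Cldn7 5.27, Krt19 3.43 and Cldn4 0.282. Krt8 and Krt18 could not be placed in order in adult cells, since the RPKM ratio of Krt8 to Krt18 was 0.917 over all retained cells, and 1.09 in cells with Krt14 and Acta2. In pregnancy the same ratio was 1.94 and 1.93. Neighbours in the order below Krt19 in adult, and below Krt18 in pregnancy, rest on a few cells and are not told apart. On this scale Krt14 had means of 2689 and 1965 RPKM, well above every member.

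**Figure D2:**
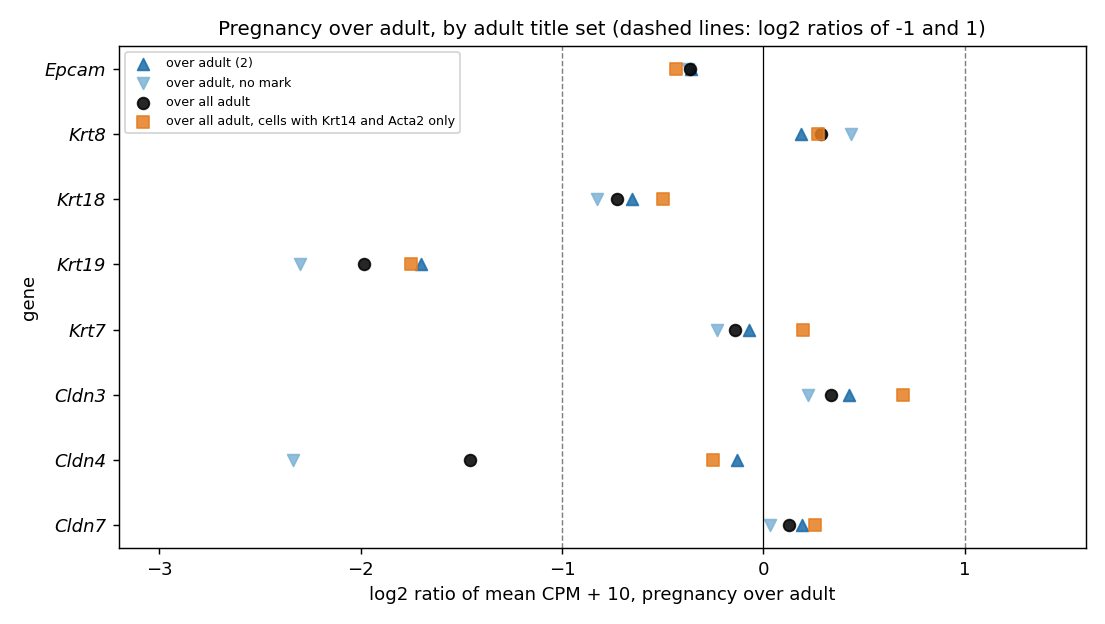
Pregnancy over adult for each gene, as the log2 ratio of mean CPM + 10, against all adult cells, each adult title set, and in the cells with Krt14 and Acta2 alone; dashed lines mark -1 and 1. Krt19 lay below -1 in all 4 comparisons, from -1.70 to -2.30, while Cldn4 did so against 2 of them.

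Called here means a log2 ratio over all adult cells of at least 1 in size, with the same sign against both adult title sets. By this rule 2 of the 8 members were called, Krt19 and Cldn4, both lower in pregnancy, against 26.2% of the 9306 genes whose mean reached 10 CPM in either stage (14.6% higher and 11.6% lower). The members' share is near that background. Cldn7 was below that mean, so 7 members met it. The median log2 ratio of the members was -0.25, and that of all genes tested was 0.01.

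The members also occurred in cells that carried both basal genes. Among the 129 adult cells with Krt14 and Acta2, Epcam was carried by 96 (74.4%), Krt8 by 54 (41.9%), Krt18 by 38 (29.5%), Krt19 by 12 (9.30%), Krt7 by 6 (4.65%), Cldn7 by 2, Cldn3 by 1 and Cldn4 by 1. Among the 70 pregnancy cells of the same kind, Epcam was carried by 56 (80.0%), Krt8 by 30 (42.9%), Krt18 by 12 (17.1%), Krt7 by 3, Cldn3 by 2, Krt19 by 1, Cldn7 by 1 and Cldn4 by 0 (up to 4.29% is possible). At least 1 of the 4 keratins was carried by 75 adult (58.1%, 49.1 to 66.8%) and 36 pregnancy cells (51.4%, 39.2 to 63.6%), and at least 1 claudin by 4 (3.10%) and 2 (2.86%).

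**Figure D3:**
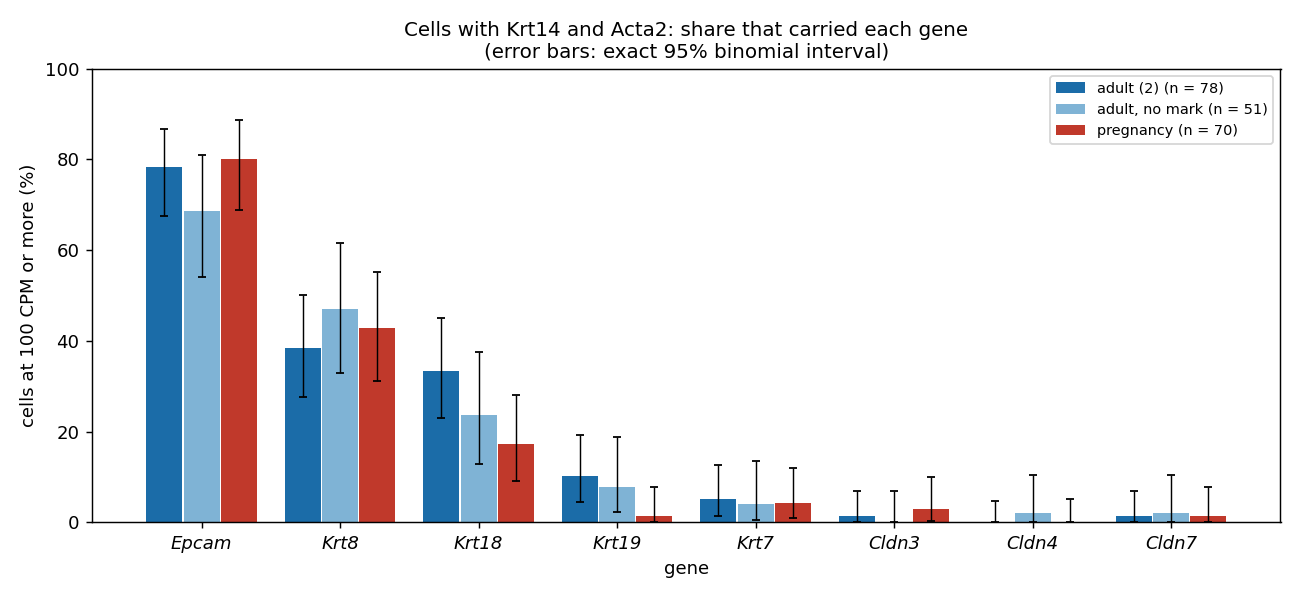
Share of cells with Krt14 and Acta2 that carried each gene at 100 CPM or more, in 78 adult (2), 51 other adult and 70 pregnancy cells; bars are shares in percent and error bars exact 95% binomial intervals. Epcam was carried by 68.6% to 80.0% of the cells of a set and each claudin by at most 2.86%.

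As a background for stray reads, 3 retained adult cells carried at most 3 core basal genes and at least 3 genes of a list that was neither luminal nor milk protein. They were cell 19 with 7 of 8 immune genes, cell 157 with 7 of 8 fibroblast genes and cell 169 with 3 of 8 endothelial genes, and their median of 220190 assigned reads was above that of either adult set. Of these, cell 19 was among the 129 adult cells with Krt14 and Acta2, at 450 and 195 CPM. In these cells Epcam was at most 3.98 CPM, Krt8 at most 4.54 CPM and Krt18 at most 9.66 CPM, and the other 5 members had no read. The levels of Epcam, Krt8 and Krt18 that counted as carried were thus above what was measured in these 3 cells. Krt14 and Acta2 did pass 100 CPM in cell 19, so these 3 cells do not set a floor for stray reads.

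Krt8 and Krt18 proteins pair in filaments, and the 2 transcripts were carried together in some cells and apart in others. Of the 129 adult cells with Krt14 and Acta2, 20 carried both (15.5%, 9.73 to 22.9%), 34 carried Krt8 without Krt18, 18 carried Krt18 without Krt8 and 57 carried neither. Of the 70 pregnancy cells, 7 carried both (10.0%, 4.12 to 19.5%), 23 Krt8 alone, 5 Krt18 alone and 35 neither. In adult cells the overlap was 37.0% of the Krt8 carriers, where 29.5% of all such cells carried Krt18. It was 52.6% of the Krt18 carriers, where 41.9% of all such cells carried Krt8. In pregnancy the overlap was 23.3% and 58.3%, where 17.1% and 42.9% of all such cells carried Krt18 and Krt8. These overlaps were not far above the shares of each gene alone, so carrying them apart is not read as a trait of the pair. With 1 read after thinning to 50000 reads as the limit, the same adult and pregnancy cells held both transcripts in 47 (36.4%, 28.1 to 45.4%) and 30 (42.9%, 31.1 to 55.3%), and neither in 31 and 4 cells. How often 1 partner was lost in cDNA synthesis was not tested.

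**Figure D4:**
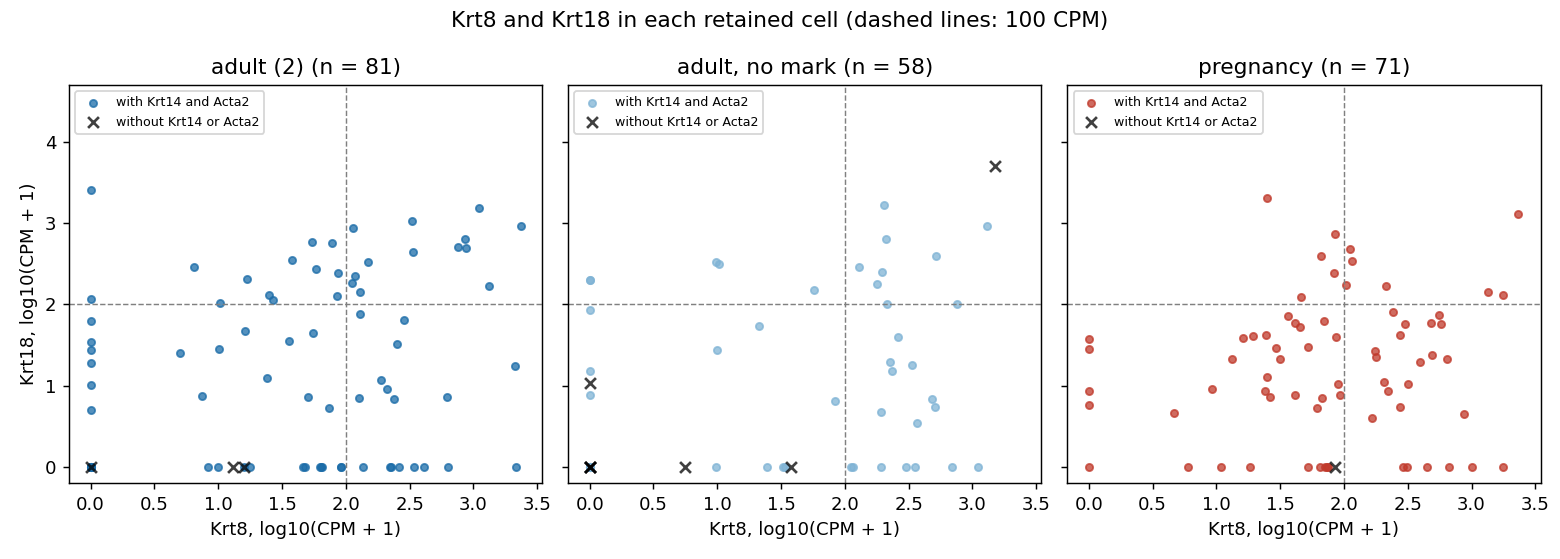
Krt18 against Krt8 in each retained cell, both as log10(CPM + 1), in the 81 adult (2), 58 other adult and 71 pregnancy cells; crosses are cells without Krt14 or Acta2 at 100 CPM and dashed lines mark 100 CPM. Cells filled both single-gene quadrants as well as the shared one, and the highest Krt18 level, 5096 CPM, was a cross.

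Epcam was carried by most carriers of Krt8 and of Krt18. In adult cells with Krt14 and Acta2 it was carried by 44 of 54 Krt8 carriers (81.5%), 34 of 38 Krt18 carriers (89.5%) and all 6 Krt7 carriers, where 74.4% of all such cells carried it. In pregnancy the counts were 25 of 30 for Krt8 (83.3%), 9 of 12 for Krt18 (75.0%) and 1 of 3 for Krt7, where 80.0% of all such cells carried it. Across cells the Spearman correlation of Krt8 with Krt18 was 0.27 in the 81 (2) cells, 0.39 in the 58 other adult cells and 0.11 in the 71 pregnancy cells. That of Krt18 with Epcam was 0.16, 0.53 and 0.15. The cells of a set share a title set and differ in depth, and values of this size in sparse counts are no finding.

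At least 1 member was carried by 111 of 139 adult cells (79.9%, 72.2 to 86.2%) and 65 of 71 pregnancy cells (91.5%, 82.5 to 96.8%). At least 3 were carried by 28 adult cells (20.1%, 13.8 to 27.8%) and 7 pregnancy cells (9.86%, 4.06 to 19.3%), with 19 of 81 (23.5%) and 9 of 58 (15.5%) in the adult title sets. Those intervals overlapped. All but 1 of the 28 adult cells also carried Krt14 and Acta2, as did all 7 pregnancy cells. The trio of Krt8, Krt18 and Epcam alone made up 11 of the adult and 4 of the pregnancy cells, and the trio with Krt19 made up 4 more of the adult cells.

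Markers of other cell types were read beside these counts. Of the 27 adult cells with Krt14, Acta2 and at least 3 members, 3 carried at least 3 of 8 luminal progenitor genes, 1 at least 3 of 10 mature luminal genes and 1 at least 3 of 7 milk protein genes, against 7, 2 and 4 of all 129 such cells. Of the 7 pregnancy cells, 5, 0 and 2 did so, against 21, 1 and 4 of 70. Of the luminal progenitor genes, Lcn2 was carried by 119 of 139 adult and 68 of 71 pregnancy cells, Mfge8 by 59 and 63, and Csn3 by 7 and 24. Csn3 is on both the luminal progenitor and the milk protein list, so the counts for these lists are not separate. Cd14 was carried by 4 adult cells, with an adult mean of 232 CPM, and by 0 pregnancy cells, Ltf by 1 cell of each stage and Elf5 by 1 adult cell. Kit and Aldh1a3 were carried by 0 cells of either stage (up to 2.16% of adult and 4.23% of pregnancy cells are possible at a count of 0). Of the mature luminal genes, Gata3 was carried by 67 adult (48.2%) and 40 pregnancy cells (56.3%), and no other by more than 8 of either stage. Of the 27 adult cells, 1 carried 5 of 8 pericyte genes (cell 102) and 1 carried 4 of 8 fibroblast genes (cell 155, with 6 mature luminal and 4 milk protein genes), while 0 carried 3 immune, endothelial or Schwann cell genes, and 0 of the 7 pregnancy cells carried 3 genes of any of these 5 lists. Over cells with Krt14 and Acta2, the summed level of the luminal progenitor list ran from 22.9 to 37046 CPM in adult and from 489 to 41446 CPM in pregnancy, with medians of 2017 and 3014. The part of these genes in the member counts was not tested.

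**Figure D5:**
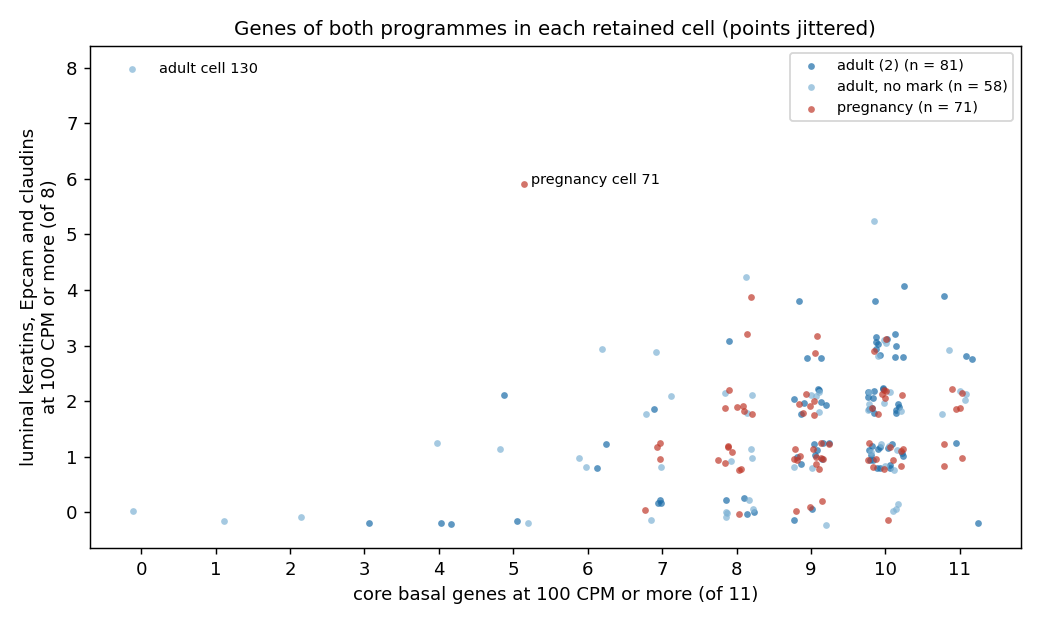
Number of the 8 genes carried (vertical) against the number of 11 core basal genes carried (horizontal) in each retained cell, with small random offsets; points are coloured by title set. Cell 130 without a core basal gene and cell 71 with 5 stand apart, and the other cells with at least 4 members had 8 to 11 core basal genes.

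By the rule for single cells, those with at least 4 members are named. Adult cell 130 carried all 8 members and 0 core basal genes, with Krt18 at 5096 CPM, Cldn4 at 2295 CPM, Krt19 at 1549 CPM, Krt8 at 1507 CPM, Epcam at 1247 CPM, Krt7 at 1121 CPM, Cldn3 at 657 CPM and Cldn7 at 229 CPM. Its Krt14 was 41.7 CPM and its Acta2 20.9 CPM, and it carried 4 mature luminal genes, so its values went against the basal label. Pregnancy cell 71 carried 6 members with 5 core basal genes, 5 of 7 milk protein genes and a mitochondrial share of 56.5%, with Krt8 at 2325 CPM, Epcam at 1370 CPM, Krt18 at 1288 CPM, Cldn7 at 535 CPM, Krt19 at 191 CPM and Cldn3 at 169 CPM. Adult cell 234 carried 5 members, all 4 keratins and Epcam, together with 10 core basal genes, and its highest member was Epcam at 1044 CPM beside Krt14 at 3580 CPM. The others with 4 members were the adult (2) cells 13, 23, 36 and 89, the adult cell 144 and the pregnancy cell 28, which had 8 to 11 core basal genes each. Of these, cells 13, 23, 89 and 144 held Krt8, Krt18, Krt19 and Epcam, and cells 36 and 28 held Krt7 in place of Krt19. Cell 89 had the highest Krt18 of them at 1530 CPM, with Acta2 at 35028 CPM. Whether a cell was a doublet was not tested.

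Of the 11 retained cells without Krt14 or Acta2, all but cell 130 carried at most 1 member. Epcam was carried by adult cells 154 (205 CPM) and 162 (168 CPM) and by pregnancy cell 44 (199 CPM), which had Acta2 at 8217, 10939 and 9099 CPM and lacked Krt14 alone. Adult (2) cells 7, 100 and 104 and adult cells 126, 156, 157 and 169 carried none. Cells 100 and 156 had no read of any member.

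The other keratins, junction genes and regulators were described by the same rule on size. Of 3 other simple keratins, Krt23, a type I keratin, was called higher, at 113 CPM in pregnancy against 13.5 and 9.60 CPM in the adult title sets (log2 ratio 2.49). It was carried by 17 of 71 pregnancy cells (23.9%) and 4 of 139 adult cells (2.88%). Of 4 basal keratins, Krt17 (log2 ratio -2.81, 4130 against 580 CPM) and Krt15 (-1.11, 206 against 90.3 CPM) were called lower, while Krt14 (-0.45) and Krt5 (-0.92) were not called. Krt14, Krt17 and Krt5 were carried by at least 50% of the cells of a stage. The median log2 ratio of the basal keratins was -1.02.

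Of 11 other claudins matched, 3 reached a mean of 10 CPM and 0 were called in either direction, with a median log2 ratio of -0.01. Of 15 tight junction genes, 8 had that mean and Patj, a scaffold of the junction, was called higher (1.42, 113 against 36.0 CPM, and 1.11 without the highest cell of each stage). Of 7 Epcam partners and inhibitors of its cleavage, Spint1, which inhibits the protease matriptase, was called lower (-1.61, 1.46 against 25.0 CPM). Cd9, a tetraspanin, and Cd44, a hyaluronan receptor, were carried by more than 50% of the cells of each stage at log2 ratios of 0.15 and 0.17. Of 7 keratin partners 0 were called, and the desmosomal Dsp (0.30) and the linker Plec (-0.18) were carried by more than 50% of cells.

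Of 11 epithelial regulators, 3 were called higher and 2 lower, with a median log2 ratio of 0.03. Klf5, a zinc finger factor, was carried by 27 of 71 pregnancy cells (38.0%) and 19 of 139 adult cells (13.7%), with means of 168 and 63.7 CPM (1.27). Grhl1 (1.35) had means of 17.1 CPM in pregnancy and 0.647 CPM in adult. Ovol1 (2.79) had a mean of 118 CPM in pregnancy, and Elf3 (-2.04) an adult mean of 81.7 CPM. Cdh1, which encodes E-cadherin, was called lower (-1.05, 26.1 against 65.0 CPM), and its ratio was -0.58 in cells with Krt14 and Acta2 alone. Without the highest cell of each stage, 4 of these 5 were no longer called: Grhl1 at 0.70 (without pregnancy cell 71), Ovol1 at 0.23 (pregnancy cell 70), Elf3 at -0.67 (adult cell 143 and pregnancy cell 71) and Cdh1 at -0.87 (adult cell 130 and pregnancy cell 40).

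The genes whose levels ran most like those of a member across cells, by the lowest Spearman correlation over the 3 title sets, were Tubb4b, Chmp2a, Sf3b1, Anxa2 and Ranbp2 for Krt8 (0.19 to 0.23). For Krt18 they were Ripk1, Ankhd1, Zfp36l2, Pttg1ip and Ptpn14 (0.22 to 0.26), and for Epcam Luzp1, Nasp, Cnih4, Tiparp and Ssb (0.24 to 0.28). On reads thinned to 50000 per cell, Tubb4b and Anxa2 were again among the first 5 for Krt8, Ripk1 and Ankhd1 for Krt18 (where Cd24a came first), and Cnih4, Nasp and Luzp1 for Epcam. These are weak correlations over 81, 58 and 71 cells that differ in depth. Ranked genes were limited to those carried by at least 20% of the cells of each title set. Of the members only Krt8 and Epcam met this, and neither was listed for another member. The other members could not be listed, so their absence is no result.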

How the data were processed

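Single cells were measured by RNA-seq on the Fluidigm C1. The deposited values were counts, which the authors gave as whole read pairs for each Entrez gene ID in each cell, not normalized, with the exon length as another deposited column. According to the study's methods and the submitters' processing notes, the authors aligned reads to mm10 with Subread 1.5.0 and counted them with featureCounts against the RefSeq annotation built into Rsubread. Counting by strand is not given in the sources used here, and no molecular identifiers were counted. A table of the whole series holding the same counts was not used.

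Symbols were matched with RefSeq (GRCm38.p6) for 25275 IDs, and the 1904 others held 1.66% of reads. After removal of these, 15 mitochondrial and 124 ribosomal protein genes, 25136 genes made up the assigned reads. Retained adult cells had 51464 to 397385 assigned reads and pregnancy cells 83688 to 405910. Each GEO sample is 1 cell and no animal is named, so each stage was treated as 1 sample and no p-value or standard error was computed. Intervals are exact Clopper-Pearson 95% intervals, and a share of 0 is given with the limit of 3 counts, all for counting error only. Log2 ratios used mean CPM over cells with 10 CPM added, which understates differences of low genes. Thinning drew reads without replacement. No doublet caller was run.

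The members, the gene lists, the rules and the alternatives were chosen with earlier results of these data known. Related genes were named where called or carried by at least 50% of the cells of a stage, and single cells where they carried at least 4 members or lacked Krt14 or Acta2. Cldn25 and Pals1 matched no symbol. Python 3.11.15, numpy 2.4.6, pandas 2.3.3 and scipy 1.17.1 were used, and edgeR 4.0.16 and DESeq2 1.42.0 gave alternative scaling factors on summed counts. The ratio was also run on simulated counts, without the rule of the same sign against both title sets. Only genes above an adult mean that Krt19, Krt7 and the claudins did not reach were changed there, so the simulation does not cover these members. Alternatives were other detection limits, depths, cell filters, pseudocounts, averages and scalings.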

Additional observations from a re-analysis of the deposited data

Results flagged for a closer look

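Cells that failed the filter are in no comparison above, and the 8 genes had more than 3 reads there. The 98 adult cells concerned held 1137 reads of the 8 genes among 1171743 assigned reads (0.0970%, exact interval 0.0915 to 0.103%), of which 945 were Epcam. The share was 0.112% in adult cells that passed. The 4 pregnancy cells concerned held 181 such reads among 93619 (0.193%, 0.166 to 0.224%), of which 125 were Krt18, and the share was 0.0877% in pregnancy cells that passed. Reads of the same cell are not independent, and no molecular identifiers were counted. Both intervals therefore understate the spread between cells, and no difference is read from them.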

How the results depend on the processing

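The share of cells with at least 3 members was 20.1% in adult and 9.86% in pregnancy. It was 42.4% and 53.5% with detection at 10 CPM, 1.44% and 1.41% at 500 CPM, 45.3% and 47.9% with 1 read after thinning to 50000 reads, and 33.1% and 19.7% after thinning to 20000 reads, so which stage was higher depended on the limit. Krt8 and Krt18 together in cells with Krt14 and Acta2, both by the same limit, were seen in 15.5% and 10.0%. The shares were 34.3% and 50.7% at 10 CPM, 4.07% and 1.43% at 500 CPM, 35.0% and 42.3% after thinning to 50000 reads, and 27.6% and 22.9% after thinning to 20000 reads. The cause was not tested. CPM of all deposited reads gave 4.23% and 4.29% for the pregnancy shares (3 cells in place of 7), which stayed within the wide intervals, and the stricter cell filter moved none of the 4 shares beyond its interval. The count of called members, 2, was 0 with a pseudocount of 100 CPM, 0 with the mean of log2 values, 1 against the (2) cells alone, 1 without the highest cell of each stage, and 1 in cells with Krt14 and Acta2 alone, an alternative chosen after seeing the data, as was leaving out the highest cells for the related genes. It was 3 with DESeq2 size factors and 3 with CPM of all deposited reads, where Krt18 passed at -1.01 and -1.07. Of all genes tested, 1.88% were called with a pseudocount of 100 CPM, 8.78% with the mean of log2 values and 31.9% against the (2) cells alone. The share was 26.0% in cells with Krt14 and Acta2 alone, 26.2% with DESeq2 size factors and 22.5% with CPM of all deposited reads. In the main setting it was 26.2%. Count and background fell together with a pseudocount of 100 CPM and with the mean of log2 values. Against the (2) cells alone the count fell while the background rose. With CPM of all deposited reads the count rose while the background fell. With a pseudocount of 1 CPM, Cldn4 was lower than Krt19, at -3.72 against -3.10. The Krt19 log2 ratio lay between -3.10 and -0.50 and the Krt8 ratio between 0.10 and 0.74 over all alternatives, so their signs held, as did that of Krt18 (-1.07 to -0.08), while those of Epcam, Krt7, Cldn3 and Cldn7 did not. The mean of log2 values moved the median of all genes from 0.01 to 0.18, and CPM of all deposited reads moved it to -0.11. With no minimum mean, 13.1% of 18649 genes were called. No paired analysis was possible because no result comes from a test and the numbers in the titles only name cells. The number of cells limits the shares of the claudins and Krt7, where 1 adult cell is 0.719% of those retained, and depth may limit them too.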
